A study of Rattus norvegicus with 24 samples.

Results

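The genes described here are 10 growth arrest and early response genes, namely Btg1, Btg2 and Btg3, Gadd45a, Gadd45b and Gadd45g, Cdkn1a, and Ier2, Ier3 and Ier5. Their probes were found by gene name, after update to the current rat symbol, among 41012 probes that are not controls. 9 of the 10 genes had a probe, among 15484 genes of known symbol on the array, and no probe was matched to Ier5. Cdkn1a had 2 probes and the other genes 1 each, which gave 10 probes. 9 of these were bright enough to be tested, among 27690 probes kept in all. The remaining one, a dim second probe of Cdkn1a, cleared the background in Cy3 and Cy5 together on 2 of 24 arrays and is given by its values only.

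The study asked how 1 injection of MK-801, which blocks the open channel of NMDA-type glutamate receptors, changes gene expression in the rat brain. 9 male Wistar rats, 10 weeks old, received an intraperitoneal injection; 3 of them received saline and the other 6 received MK-801 at 0.08 mg/kg (low dose) or 0.16 mg/kg (high dose). Brains were removed 40 min later and divided into cerebral cortex, ventral striatum, amygdala, hippocampus, hypothalamus and midbrain, and MK-801 RNA was hybridised with saline RNA of the same region on 2-colour arrays. Each of the 12 combinations of region and dose was run as a dye swap, on 1 array with MK-801 in Cy5 and 1 with MK-801 in Cy3, so that 24 arrays gave 12 values. All rats were of the same strain and sex and carried no genetic change that the labels name. The labels name no animal for any array, nor say how many rats an RNA came from, so the 6 regions are the only repeats and a p-value measures the spread between regions. The saline RNA of all 6 regions came from among the 3 rats given saline, in a number per region that the labels do not state. Regions thus share animals, and a p-value over them does not measure the spread between rats.

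BTG proteins are small antiproliferative factors that bind the CCR4-NOT deadenylase and shorten the poly(A) tails of messages, and Btg2 is also an early response gene that is induced in neurons by activity and by p53. GADD45 proteins are stress sensors that bind the kinase MAP3K4 upstream of p38 and JNK and have been linked to active DNA demethylation, Gadd45b in mouse hippocampus being the best known case. Cdkn1a encodes p21, the inhibitor of cyclin-dependent kinases induced by p53, and the IER genes are immediate early genes that growth factors and neuronal activity switch on within minutes.

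The probes are 60-base oligonucleotides, and the first 30 bases of those the results turn on are printed with the position the scanner files give in the rat build rn3. They are shown in lower case throughout, because no base of a probe is singled out, and the second line of Cdkn1a is the dim probe.
Btg2 (chr13:47041065-47041124, minus strand): gttactgattgtacaatagcgcttttatat
Ier2 (chr19:25165474-25165533, plus strand): gtcttagacacgacctcttcgggcaagata
Gadd45g (chr17:19231059-19231118, minus strand): agcgaggcaggtgtgactcagcaagcagcc
Cdkn1a (chr20:7386823-7386882, plus strand): ccctgtttctgtaacaccctgagctggact
Cdkn1a (chr20:7385733-7385792, plus strand): tcagtgtgtcttaattattatttgtgtttt

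RefSeq promoter sequences of the rat assembly GRCr8 were matched by symbol for 9 of the 10 genes. The 250 bases before the start of 4 genes are printed because 3 of these genes changed and Cdkn1a differed between regions. Capitals mark matches to 1 of 6 motifs searched on both strands, namely the cAMP response element (CRE, TGACGTCA), its shorter core (TGACG) outside a full CRE, the AP-1 site (TGACTCA), the TATA box (TATAAA), the CArG box and the p53 half-site.
Btg2 (chr13:48087691-48087940, minus strand): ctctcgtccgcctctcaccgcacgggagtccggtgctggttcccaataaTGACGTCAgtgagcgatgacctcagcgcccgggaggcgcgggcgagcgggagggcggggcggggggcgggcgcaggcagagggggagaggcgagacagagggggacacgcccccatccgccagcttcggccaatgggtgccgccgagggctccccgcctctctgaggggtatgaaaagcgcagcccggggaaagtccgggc
Ier2 (chr19:40399123-40399372, plus strand): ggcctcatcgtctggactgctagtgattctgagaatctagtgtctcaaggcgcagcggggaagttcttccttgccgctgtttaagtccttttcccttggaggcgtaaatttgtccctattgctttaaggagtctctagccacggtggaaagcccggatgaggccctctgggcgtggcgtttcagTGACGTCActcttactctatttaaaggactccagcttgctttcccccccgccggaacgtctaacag
Gadd45g (chr17:13530352-13530601, minus strand): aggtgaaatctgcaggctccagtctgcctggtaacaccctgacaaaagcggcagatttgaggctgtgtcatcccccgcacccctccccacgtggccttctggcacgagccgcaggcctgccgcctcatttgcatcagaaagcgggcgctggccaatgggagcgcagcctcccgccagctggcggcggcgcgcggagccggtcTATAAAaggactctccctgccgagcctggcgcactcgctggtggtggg
Cdkn1a (chr20:7150682-7150931, plus strand): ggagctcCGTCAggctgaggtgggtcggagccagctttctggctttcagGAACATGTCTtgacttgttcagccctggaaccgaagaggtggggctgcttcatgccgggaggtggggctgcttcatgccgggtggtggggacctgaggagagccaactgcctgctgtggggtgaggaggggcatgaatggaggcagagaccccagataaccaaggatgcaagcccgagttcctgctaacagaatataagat

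Btg2 and Ier2 each held a full CRE, which 1.59% of 33469 rat promoters of the same length also held. It lay 201 to 194 bases before the start in Btg2 and 66 to 59 bases before it in Ier2. Gadd45g held a TATA box 48 to 43 bases before its start, a motif in 12.9% of promoters. Cdkn1a held a CRE core 243 to 239 bases and a p53 half-site 201 to 192 bases before its start, motifs in 18.2% and 6.64% of promoters. The share for the core also counts promoters whose core lies inside a full CRE. Of the members not shown, Gadd45a held a CRE core and a p53 half-site and Ier5 a p53 half-site and a TATA box, while Btg1, Btg3 and Gadd45b held none of the 6. No window held an AP-1 site (4.05% of promoters) or a CArG box (1.5%). Such a match is a description of the letters in the window, and a missing one says only that these letters are not there.

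Between 55.2% and 78.5% of probes cleared the background in Cy3 and Cy5 on any 1 array, with a median spot signal of 1.82 to 3.1 times the local background in Cy3 and 3.23 to 5.77 times in Cy5. The number of arrays limits the precision. After both arrays of a dye swap were turned to MK-801 over saline, their log2 ratios correlated across probes at -0.505 to -0.126, so an array's ratio carried a dye effect that the mean of a dye swap cancels. The 9 probes tested cleared the background in Cy3 and Cy5 on all 24 arrays and were saturated on none. Per probe, the SD of an array around its dye swap mean, after the mean dye effect was taken off, was 0.04 to 0.09 on the log2 scale, and this is called the dye swap error below. The regions were checked against their markers in the saline channel, where Th was higher in midbrain than in any other region by 4.73 on the log2 scale, Drd1 in ventral striatum by 3.40, Pmch in hypothalamus by 3.13, Neurod2 in hippocampus by 1.37 and Cyp26b1 in amygdala by 0.17. Lamp5 was highest in cerebral cortex by 0.76. Of 21 region markers measured, 15 were highest in the region they mark, among them 1 of 3 for amygdala and 2 of 4 for hypothalamus. The exceptions were Rspo2 and Tfap2c of the amygdala and Rasgrf2 of the cortex, highest in hippocampus, Avp of the hypothalamus, highest in amygdala, Hcrt of the hypothalamus, highest in cerebral cortex, and Spink8 of the hippocampus, highest in midbrain. All 4 choroid plexus and all 7 meningeal markers measured were highest in amygdala, Kcnj13 by 2.63.

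Over both doses, 3 of the 9 tested probes rose and none fell. Because the members were picked with earlier results of these data known, this count and those below are no independent test of the group. The genes that rose were Btg2, Ier2 and Gadd45g. Called higher were 1.29% of all 27267 probes tested and called lower 1.17%, by limma at an adjusted p under 0.05, 671 probes in all against 1795 with the array number as a block. At an unadjusted p under 0.05, 4 of the 9 were higher and 0 lower. The median over the 9 was 0.04 on the log2 scale and that over all probes 0. In whole tissue, a ratio changed by more or fewer cells of a type and one changed by more or less RNA per cell cannot be told apart. In the plot of ratios by member, the means of the 3 genes lie above those of the other probes, but single values overlap. At the low dose, Ier2 was at 0.02 in midbrain and the brighter probe of Cdkn1a at 0.32 in hypothalamus.

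**Figure D1:**
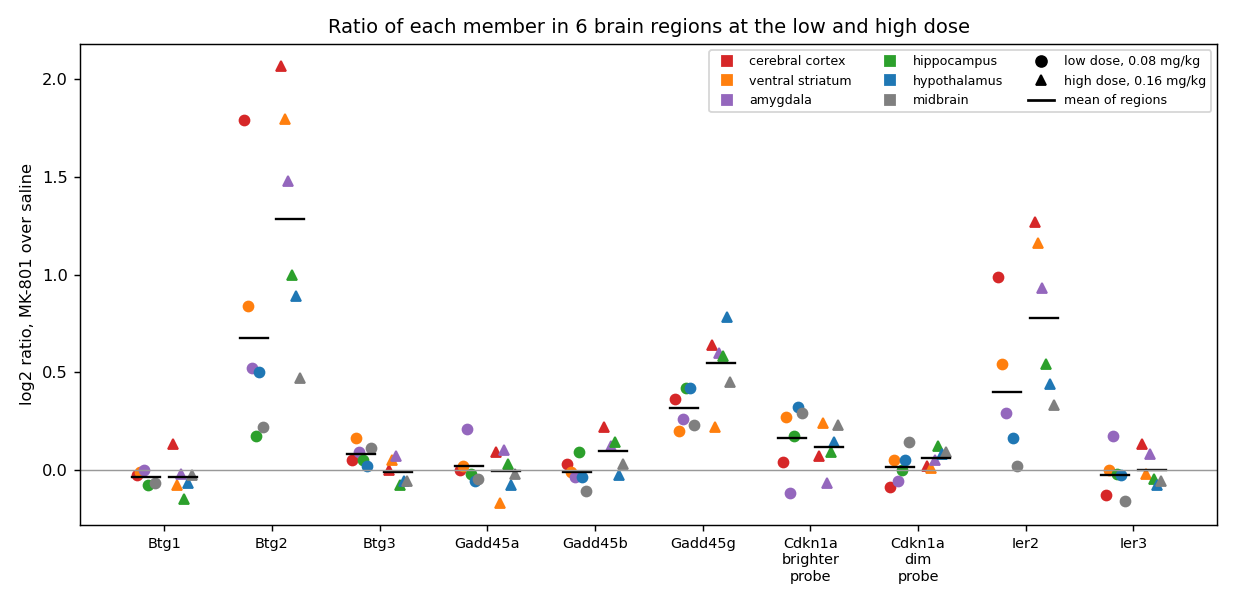
Log2 ratio of MK-801 over saline for the 10 probes, with 1 point per region and dose (colour for the region, circles for the low and triangles for the high dose) and a line at the mean of regions. Btg2, Ier2 and Gadd45g lie above 0 in every region and dose measured, and the other probes lie between -0.17 and 0.32.

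Btg2, an antiproliferative partner of the CCR4-NOT deadenylase, showed the largest ratios of the group. At the high dose its log2 ratio was 2.07 in cerebral cortex, 1.80 in ventral striatum, 1.48 in amygdala, 1.00 in hippocampus, 0.89 in hypothalamus and 0.47 in midbrain. At the low dose it was 1.79 in cerebral cortex, 0.84 in ventral striatum, 0.52 in amygdala, 0.50 in hypothalamus, 0.22 in midbrain and 0.17 in hippocampus. All 24 single arrays were above 0, from 0.12 to 2.25, and the dye swap error was 0.09, so the values of the regions were spread far wider than the arrays of a dye swap. The mean of both doses was 0.98 ± 0.58 (SD, n = 6 regions), or 1.97-fold, with all 6 regions above 0 (adjusted p = 0.00567, limma), and the size ranked 6 among 27267 probes. Btg2 rose at the high dose, by 1.29 ± 0.60 or 2.44-fold (adjusted p = 0.00106, limma), and at the low dose, by 0.67 ± 0.60 or 1.59-fold (adjusted p = 0.0467, limma). The fitted spread of this test holds the differences between regions, and with limma's robust prior and intensity trend the calls over both doses (adjusted p = 0.151) and at the high dose (0.0971) ended. The low-dose call ended under 10 of 22 alternatives, among them leaving out amygdala (adjusted p = 0.0793), ventral striatum (0.156) or hypothalamus (0.0966).

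Btg1 and Btg3, relatives of Btg2 that bind the same deadenylase, passed no test. Btg1 was the brightest member, and its ratios ran from -0.15 in hippocampus to 0.13 in cerebral cortex at the high dose and from -0.08 to 0 at the low dose. Its mean over both doses was -0.04 ± 0.06 (n = 5, the hypothalamus value at the low dose being lost to a flagged spot). Btg3 ran from -0.08 to 0.07 at the high dose and from 0.02 to 0.16 at the low dose, where it was higher in 6 of 6 regions (0.08 ± 0.05, adjusted p = 0.193, limma). The dye swap errors were 0.04 for Btg1 and 0.05 for Btg3. Both Btg1 arrays of hippocampus at the high dose lay below 0, at -0.16 and -0.15, and both of cerebral cortex above it, at 0.09 and 0.17. The highest Btg3 value, 0.16 in ventral striatum at the low dose, came from arrays that disagreed, at 0.36 and -0.04. Of 14 measured genes in the wider BTG/TOB family and the CCR4-NOT complex, 0 rose and 0 fell over both doses in limma (2 higher and 1 lower before adjustment, at p under 0.05), and the median was 0. Among them Tob1, a further antiproliferative deadenylase adaptor, was at 0.15 ± 0.13 over both doses (adjusted p = 0.0756) and rose by 0.21 ± 0.14 at the high dose (adjusted p = 0.0322, limma). Tob2 was at 0.10 ± 0.07 (adjusted p = 0.0789). Cnot8, a catalytic deadenylase subunit, rose by 0.13 ± 0.07 at the low dose (adjusted p = 0.0472, limma) and stood 0.21 ± 0.08 lower at the high than at the low dose.

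Ier2, an immediate early gene for a nuclear protein, had the ratios most like those of Btg2. At the high dose its log2 ratio was 1.27 in cerebral cortex, 1.16 in ventral striatum, 0.93 in amygdala, 0.54 in hippocampus, 0.44 in hypothalamus and 0.33 in midbrain. At the low dose it was 0.99 in cerebral cortex, 0.54 in ventral striatum, 0.29 in amygdala, 0.16 in hypothalamus and 0.02 in midbrain. The hippocampus value at the low dose is missing because a spot was flagged as an outlier; the other array of that dye swap read 0.05, and the mean with the flagged spot kept was 0.18. 22 of 23 arrays were above 0, and the exception was a midbrain array at the low dose, at -0.13. The mean over both doses was 0.61 ± 0.39 (n = 5), or 1.53-fold, with all 5 regions above 0 (adjusted p = 0.0163, limma). Ier2 rose at the high dose by 0.78 ± 0.40 (n = 6), or 1.71-fold (adjusted p = 0.00216, limma), a call that ended with limma's robust prior and intensity trend (0.115). At the low dose the mean was 0.40 ± 0.38 (n = 5, adjusted p = 0.0874), which did not pass. The low-dose value was called with the array number as a block (0.38, adjusted p = 0.0126) and without midbrain (0.49, 0.0382). The call over both doses ended under 7 of 22 alternatives, among them the scanner's own ratio (adjusted p = 0.0974) and leaving out ventral striatum (0.0736) or amygdala (0.0514).

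Ier3, an early response gene that modulates survival signalling, passed no test. Its ratios ran from -0.08 to 0.13 at the high dose and from -0.16 to 0.17 at the low dose, with a dye swap error of 0.09. The mean over both doses was -0.01 ± 0.08 (n = 6). Of 7 measured relatives and targets of the ERK pathway, 2 rose over both doses and 0 fell, beside 1.29% and 1.17% of all probes. The median was 0.07 beside 0 over all probes. These were Zfp36l1, an RNA-binding protein that promotes message decay, by 0.12 ± 0.06 (adjusted p = 0.0211, limma) and the survival factor Mcl1, by 0.11 ± 0.05 (adjusted p = 0.0263, limma). Ier5l, a relative of Ier5, was at 0.10 ± 0.07 over both doses and rose by 0.15 ± 0.08 at the high dose (adjusted p = 0.0297, limma). Zfp36l1 (0.16, adjusted p = 0.0138) and Mcl1 (0.17, adjusted p = 0.0139, limma) also rose at the high dose. These were 3 of the 7, beside 1.05% of all probes called higher. At the low dose 0 rose and 0 fell, beside 1.19% and 1.23% of all probes.

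Gadd45g, a stress sensor that binds MAP3K4, had smaller ratios than Btg2 and a different order of regions. At the high dose its log2 ratio was 0.78 in hypothalamus, 0.64 in cerebral cortex, 0.60 in amygdala, 0.58 in hippocampus, 0.45 in midbrain and 0.22 in ventral striatum. At the low dose it was 0.42 in hypothalamus, 0.42 in hippocampus, 0.36 in cerebral cortex, 0.26 in amygdala, 0.23 in midbrain and 0.20 in ventral striatum. All 24 arrays were above 0, from 0.14 to 0.85, with a dye swap error of 0.06, and the regions lay closer together than those of Btg2. The mean over both doses was 0.43 ± 0.14 (n = 6), or 1.35-fold, with all 6 regions above 0 (adjusted p = 0.000178, limma). Gadd45g rose by 0.55 ± 0.19 at the high dose (adjusted p = 0.000264) and by 0.31 ± 0.10 at the low dose (adjusted p = 0.000257, limma). The call over both doses held under all 24 alternatives run, with an adjusted p of at most 0.0227, and that at the high dose under all 22. At the low dose it held under 20 of 22, the exceptions being the regions of scan day 1 alone (adjusted p = 0.386) and of scan day 2 alone (0.0736).

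Gadd45a and Gadd45b, its close relatives, passed no test. Gadd45a ran from -0.17 in ventral striatum to 0.10 in amygdala at the high dose and from -0.06 to 0.21 at the low dose, with a mean of 0 ± 0.09 (n = 6). Gadd45b ran from -0.03 to 0.22 at the high dose (5 regions) and from -0.11 to 0.09 at the low dose, with a mean over both doses of 0.04 ± 0.08 (n = 5). At the high dose Gadd45b had a mean of 0.10 ± 0.10 and an unadjusted p of 0.027 in limma, which adjustment took to 0.324. A list of GADD45 partners, stress kinases and other stress and DNA demethylation genes had 14 measured genes. Of these 2 rose and 1 fell over both doses, beside 1.29% and 1.17% of all probes, with a median of 0. The 2 that rose were stress genes rather than partners or kinases. Ppp1r15a, also known as Gadd34 and a regulator of the eIF2 phosphatase, rose by 0.29 ± 0.20 (adjusted p = 0.0196) and Ddit4, a stress-induced inhibitor of mTORC1, by 0.19 ± 0.06 (adjusted p = 0.00147). Mapk14, the p38α kinase downstream of MAP3K4, fell by 0.10 (SD 0.02, adjusted p = 0.0181, limma). Mapk14 fell by 0.17 at the high dose (adjusted p = 0.00348) and was at -0.02 at the low dose (0.738), and the doses differed (-0.15, adjusted p = 0.0323, limma). Ppp1r15a also differed between the doses, by 0.22 ± 0.15 (adjusted p = 0.0466, limma). Map3k4 itself was at -0.02 ± 0.08 (adjusted p = 0.817).

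At the high dose, Btg2, Ier2 and Gadd45g rose, 3 of 9 tested probes beside 1.05% of 27530 called higher, and 0 fell beside 0.952% called lower (5 higher and 0 lower at an unadjusted p under 0.05, limma). Btg2 and Gadd45g rose at the low dose, 2 of 9 beside 1.19% of 27531 called higher, and 0 fell beside 1.23% called lower (5 higher and 0 lower at an unadjusted p under 0.05). These comparisons share the saline group. The median of the 9 was 0.10 at the high and 0.08 at the low dose.

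The difference between the doses was tested directly on the ratios, region by region. For Btg2, Ier2 and Gadd45g the ratio at the high dose was above that at the low dose in every region measured. Btg2 stood higher at the high dose by 0.97 in ventral striatum, 0.96 in amygdala, 0.83 in hippocampus, 0.39 in hypothalamus, 0.29 in cerebral cortex and 0.26 in midbrain. The cortex, with the largest ratios, thus had among the smallest differences between doses in its ratio. The saline channel of Btg2 there also differed, at 11.91 on the arrays of the high and 11.07 on those of the low dose. The MK-801 channel read 13.99 and 12.86, so both channels read higher on the arrays of the high dose. The ratio is taken within each array, and the cortex arrays read 1.90 and 2.25 at the high dose. At the low dose they read 1.77 and 1.81. The part of the saline readings in the small difference was not tested. Over regions the difference was 0.62 ± 0.34 (n = 6, adjusted p = 0.00265, limma). Ier2 differed by 0.64 in amygdala, 0.62 in ventral striatum, 0.31 in midbrain, 0.28 in cerebral cortex and 0.28 in hypothalamus, or 0.43 ± 0.19 (n = 5, adjusted p = 0.0022). Gadd45g differed by 0.35 in hypothalamus, 0.34 in amygdala, 0.28 in cerebral cortex, 0.22 in midbrain, 0.17 in hippocampus and 0.02 in ventral striatum, or 0.23 ± 0.12 (n = 6, adjusted p = 0.0136). In ventral striatum the doses of Gadd45g thus differed by less than its dye swap error. These were 3 of 9 tested probes higher, beside 0.833% of 27267, and 0 of 9 lower, beside 0.612% (4 higher and 1 lower at an unadjusted p under 0.05, the lower one being Btg3 at -0.09 ± 0.05). Fitted to single arrays with their number as a block, a design that does not pair the doses within a region, none of the 3 was called, at an adjusted p of 0.257 for Btg2, 0.26 for Ier2 and 0.0636 for Gadd45g. With the scanner's own ratio they also ended (0.0805, 0.0711 and 0.104). In all, the call ended under 6 of 24 alternatives for Btg2, among them the robust prior (0.169), under 4 of 22 for Ier2 and under 11 of 24 for Gadd45g. Those of Gadd45g include median centring (0.733), each scan day alone and leaving out amygdala (0.0559), cerebral cortex (0.0537) or hypothalamus (0.0681). As log2 intensities normalised between arrays, the MK-801 channel of Btg2 was higher at the high dose in every region. That of Ier2 was lower in ventral striatum (11.95 against 12), cortex (13.01, 13.05) and hypothalamus (11.76, 11.97) and higher in midbrain and amygdala. That of Gadd45g was lower in midbrain (11.34, 11.69), cortex (12.18, 12.28) and ventral striatum (11.26, 11.42) and higher elsewhere. Where it was lower, saline also read lower on the high-dose arrays.

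Markers of other cells moved with the dose. All 3 measured red blood cell genes of the list of 5 (Hbb, Alas2 and Slc4a1) were called higher at the high than at the low dose, beside 0.833% of all probes. Their median difference was 0.61. Their median per region ran from 0.13 to 0.41 at the high dose and from -0.57 to -0.12 at the low dose. Of 7 microglial genes 3 were called lower at the high than at the low dose, beside 0.612% of all probes. The differences of the 7 ran from -0.23 to -0.01, with a median of -0.12. The part of these in the dose difference of Btg2, Ier2 and Gadd45g was not tested. Over both doses the red blood cell genes were not called, with a median of -0.01. Of 11 endothelial genes 1 rose and 1 fell, beside 1.29% and 1.17% of all probes, with a median of -0.03.

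**Figure D2:**
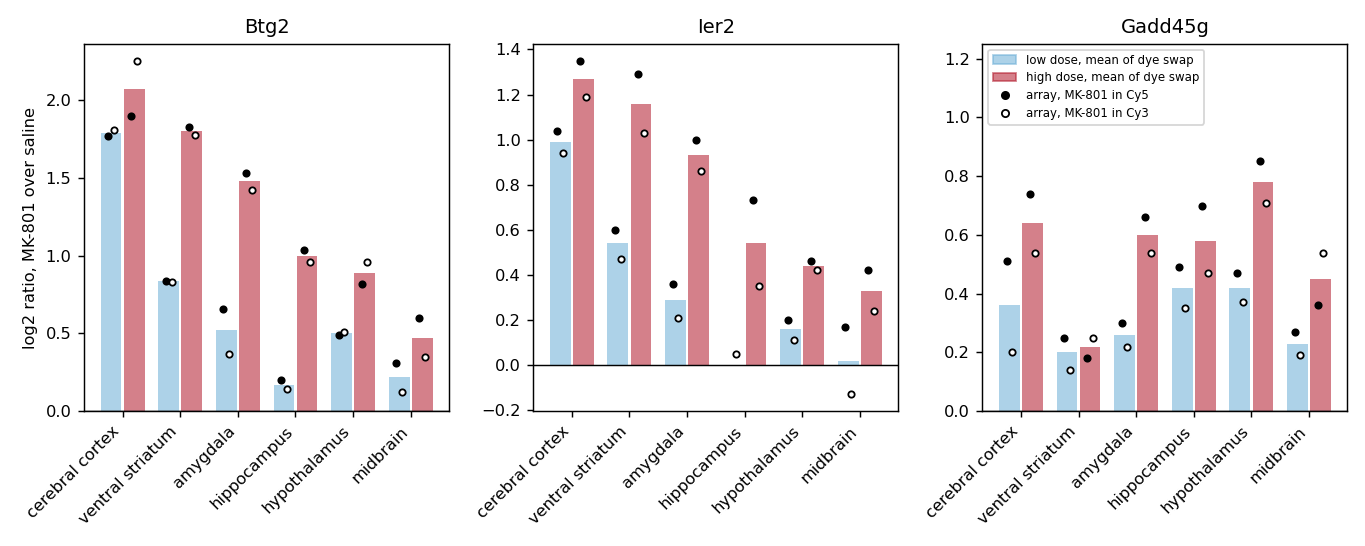
Log2 ratio of MK-801 over saline by region for Btg2, Ier2 and Gadd45g, with bars for the mean of a dye swap (blue for the low and red for the high dose) and points for its arrays (filled with MK-801 in Cy5, open with MK-801 in Cy3). Btg2 and Ier2 descend from cerebral cortex to midbrain at the high dose, while Gadd45g is highest in hypothalamus, at 0.78, and lowest in ventral striatum, at 0.22; the Ier2 value of hippocampus at the low dose has 1 array and no bar.

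Whether the ratio of a probe differed between regions was tested on the 12 values with dose as a covariate, for the 6 members with all 12 values. Btg2 (F = 27.4, adjusted p = 0.00108) and the brighter probe of Cdkn1a (F = 9.85, adjusted p = 0.0418, limma) were called, 2 of 6 beside 1.18% of 24618 probes. The mean of both doses of Btg2 ran from 1.93 in cerebral cortex, or 3.81-fold, through 1.32 in ventral striatum and 1.00 in amygdala to 0.34 in midbrain, or 1.27-fold. Gadd45g (adjusted p = 0.0848), Gadd45a (0.259), Ier3 (0.387) and Btg3 (0.462) did not pass. Ier2, Btg1 and Gadd45b lacked a value. With flagged spots kept, an alternative chosen after seeing the data, Ier2 was called as well (F = 33.0, adjusted p = 0.000611, limma). The call of Btg2 ended with the scanner's own ratio (adjusted p = 0.133) and with the robust prior that follows intensity (0.0932), under which Gadd45g was called (0.0170), and that of Cdkn1a with the scanner's own ratio (0.166) and with no filter on dim probes (0.0685). Region, slide and the saline RNA of the region cannot be told apart. Each slide of 4 arrays held 1 region, and both doses of a region were set against saline RNA of that region. A shift in that RNA would enter both values alike, so the test does not separate it from a response to MK-801.

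Cdkn1a, the p53-induced inhibitor of cyclin-dependent kinases, was measured on each array by 10 spots of its brighter probe. Its log2 ratio at the high dose was 0.24 in ventral striatum, 0.23 in midbrain, 0.14 in hypothalamus, 0.09 in hippocampus, 0.07 in cerebral cortex and -0.07 in amygdala. At the low dose it was 0.32 in hypothalamus, 0.29 in midbrain, 0.27 in ventral striatum, 0.17 in hippocampus, 0.04 in cerebral cortex and -0.12 in amygdala. All 4 amygdala arrays were below 0 and the 20 arrays of the other regions above 0. The 10 spots of an array had an SD of 0.0312 to 0.102 (median 0.0632), with 8 spots or more used on every array, and the dye swap error was 0.05. The mean over both doses was 0.14 ± 0.14 (n = 6, above 0 in 5 of 6 regions; adjusted p = 0.14, limma), which did not pass. It was called with the array number as a block (adjusted p = 0.0021 over both doses and 0.0442 at the low dose) and without amygdala (0.18, adjusted p = 0.014, and 0.22, adjusted p = 0.0135, at the low dose). The dim probe ran from -0.09 to 0.14. The 4 hypothalamus markers had a median ratio in amygdala of -0.51 at the high and -0.53 at the low dose, and of -0.13 and -0.18 in hypothalamus. The choroid plexus genes had a median ratio in amygdala of 0.90 at the high and 0.20 at the low dose. The oligodendrocyte genes were at -0.09 and 0.03 there and at 0.19 and 0.22 in midbrain. The part of these genes in the ratios of Cdkn1a was not tested.

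**Figure D3:**
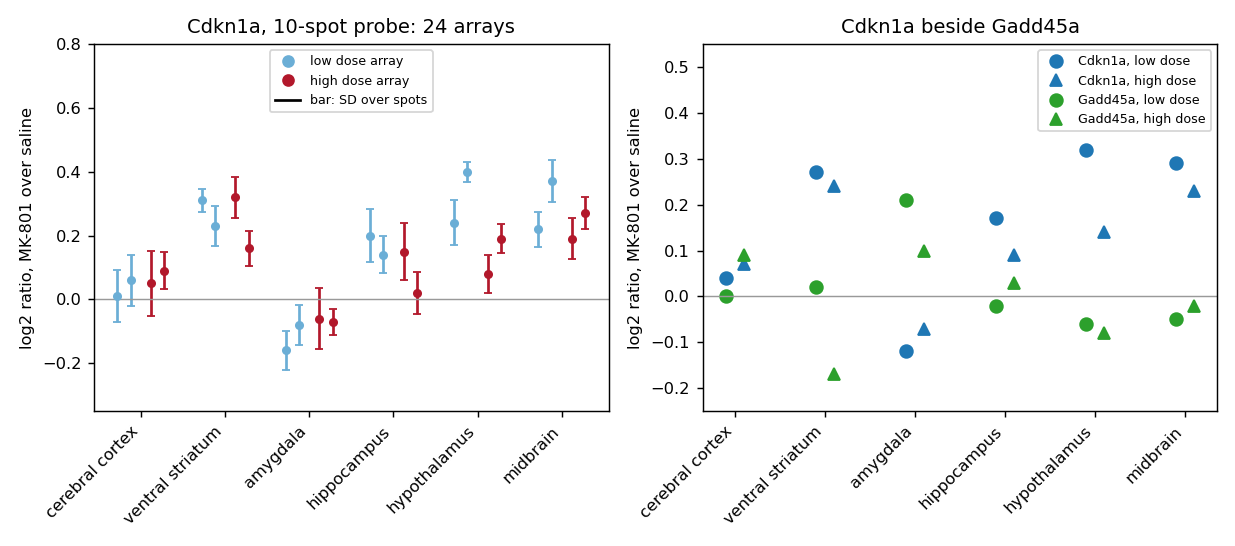
Left, log2 ratio of MK-801 over saline of the brighter Cdkn1a probe on each of 24 arrays by region, with bars for the SD over its spots. Right, its dye swap means beside those of Gadd45a, with circles for the low and triangles for the high dose; the 4 amygdala arrays of Cdkn1a lie below 0 and Gadd45a has its highest values, 0.21 and 0.10, in amygdala.

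Means of other cell cycle and p53 response genes over both doses lay between -0.12 and 0.15. Of 7 measured CDK inhibitors other than Cdkn1a, 0 rose and 0 fell over both doses in limma (1 higher and 0 lower before adjustment, at p under 0.05), and the median was -0.02. Those with the largest means were Cdkn1c at -0.08 ± 0.23, Cdkn2a at 0.05 ± 0.04, Cdkn2d at -0.04 ± 0.12 and Cdkn2c at -0.03 ± 0.04. Of 16 cyclin, CDK and proliferation genes, 1 fell over both doses, beside 1.17% of all probes, with a median of 0. This was Ccnd1, cyclin D1, which fell by 0.12 (SD 0.06, adjusted p = 0.0235, limma). Ccnd1, Ccnd2 and Ccnb1 fell at the low dose, 3 of 16 beside 1.23% of all probes, by 0.14, 0.13 and 0.14 (adjusted p = 0.0307, 0.0278 and 0.0468, limma). Ccne2, cyclin E2, rose by 0.14 ± 0.05 at the high dose (adjusted p = 0.0153, limma). Of 19 measured p53 pathway genes 1 rose over both doses and 0 fell, beside 1.29% and 1.17% of all probes, with a median of 0.01. It was Sesn1, a stress-induced inhibitor of mTORC1, which rose by 0.15 ± 0.06 in 6 of 6 regions (adjusted p = 0.00559, limma). Mdm2, the p53 ubiquitin ligase and a p53 target, was at 0.01 ± 0.05, and Mdm4 rose by 0.11 ± 0.04 at the low dose (adjusted p = 0.0413, limma).

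The members were also set beside each other over the 12 combinations of region and dose, as a description. Btg2 and Ier2 ran nearly in parallel (r = 0.99, n = 11), while Btg2 and Gadd45g were only loosely related (r = 0.24, n = 12). Ier2 and Gadd45b had r = 0.83 (n = 10), although Gadd45b stayed between -0.11 and 0.22. Cdkn1a and Gadd45a ran opposite to each other (r = -0.76, n = 12), and so did Btg3 and Gadd45g (r = -0.73, n = 12). Gadd45a stayed between -0.17 and 0.21 with a dye swap error of 0.08, and Btg3 between -0.08 and 0.16 with one of 0.05. The amygdala arrays of Gadd45a disagreed, at 0.44 and -0.03 at the low dose and 0.25 and -0.05 at the high dose. The points of a region share a slide and the saline group, and both doses enter, so they are not independent.

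**Figure D4:**
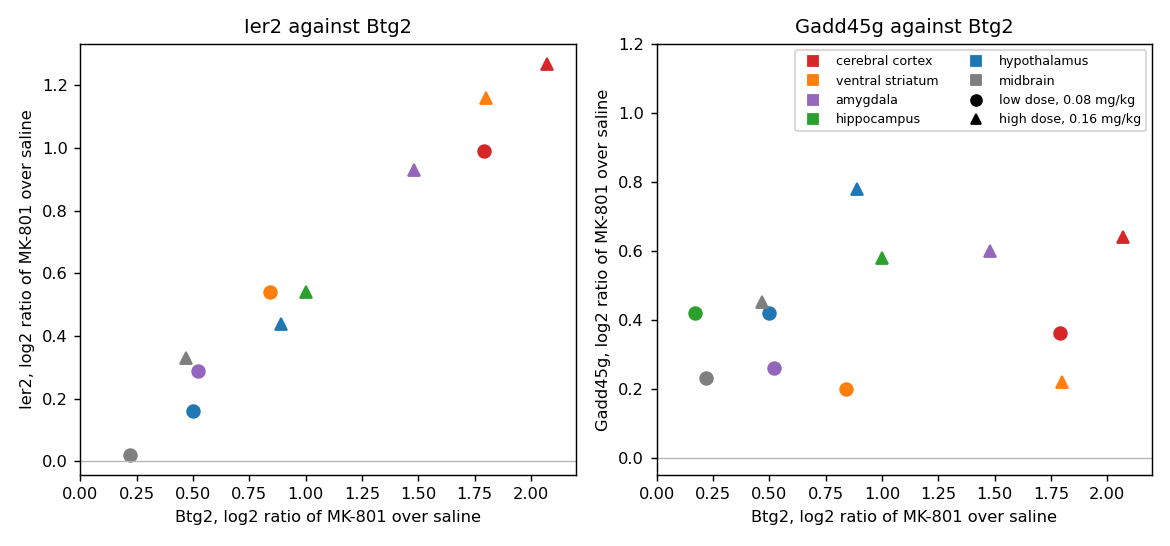
Log2 ratio of MK-801 over saline of Ier2 (left, 11 values) and Gadd45g (right, 12 values) against that of Btg2, with 1 point per region and dose. Ier2 follows Btg2 (r = 0.99), while Gadd45g has its highest value, 0.78 in hypothalamus at the high dose, where Btg2 is at 0.89, and one of its lowest, 0.22, in ventral striatum, where Btg2 is at 1.80.

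Among 10230 genes of known symbol with all 12 values, those whose ratios correlated most with Btg2 were Ccn1, a matricellular protein (r = 0.96), the AP-1 family members Jun (0.96) and Atf3 (0.96), Apold1, an early response gene of endothelium (0.95), and Edn1, the precursor of endothelin-1 (0.95), against a median r of -0.04 over all genes. Their mean log2 ratios over both doses were 2.11 for Ccn1, 1.46 for Apold1, 0.87 for Atf3, 0.31 for Jun and 0.24 for Edn1, so that Btg2 at 0.98 lay amid them. The genes most like Gadd45g were Egr1, an activity-induced zinc finger factor (r = 0.86), the kinase Pim1 (0.86), the synaptotagmin Syt7 (0.86), the ganglioside synthase B4galnt1 (0.85) and the tubulin Tuba4a (0.85), also with a median r of -0.04 over all genes. Their mean ratios lay between -0.17 for Egr1 and 0.01 for Syt7, beside 0.43 for Gadd45g. These genes were picked for the highest r among many, and the same search gave a highest r of 0.93 for Cdkn1a, 0.91 for Gadd45a, 0.87 for Ier3 and 0.84 for Btg3, members that passed no test over both doses. Ier2 lacked 1 value and was not ranked this way.

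In the saline channel, levels are log2 intensities of each probe after normalisation within and between arrays and were compared between regions for the same probe only. Btg2 was highest in cerebral cortex, at 11.49, then in amygdala at 11.30, hippocampus at 10.84, midbrain at 10.78, ventral striatum at 10.72 and hypothalamus at 10.38. Cortex and amygdala overlapped, as did hippocampus, midbrain and ventral striatum, and hypothalamus lay below the rest. The cortex level of Btg2 rests on dye swaps that disagree, at 11.91 on the arrays of the high and 11.07 on those of the low dose, a difference of 0.84 that exceeds that of most probes there (percentile 98.8, median absolute difference 0.152). Ier2 was highest in hippocampus, at 11.95 from 1 dye swap, then in cerebral cortex at 11.90, midbrain at 11.68, amygdala at 11.63, hypothalamus at 11.57 and ventral striatum at 11.13. Of its neighbours in this order only cortex and midbrain did not overlap. The ventral striatum level of Ier2 rests on dye swaps that disagree, at 10.79 on the arrays of the high and 11.47 on those of the low dose (SD 0.47).

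Gadd45g was highest in hypothalamus, at 12.35, which lay 0.62 above cerebral cortex at 11.73 and did not overlap it. Amygdala followed at 11.64, midbrain at 11.17, ventral striatum at 11.14 and hippocampus at 10.94, of which only amygdala and midbrain did not overlap as neighbours. Hypothalamus thus held both the highest saline level and, at the high dose, the highest ratio of Gadd45g, while the level with MK-801 reached 13.12 there. Gadd45a was highest in ventral striatum, at 11.06, and midbrain, at 11.04, which overlapped, then in cerebral cortex at 10.20, hypothalamus at 10.10, hippocampus at 9.62 and amygdala at 9.49. The step of 0.84 from midbrain to cortex was the widest between its neighbours. Gadd45b varied less, from 10.22 in hippocampus through 9.99 in cortex, 9.96 in ventral striatum (1 dye swap), 9.79 in hypothalamus and 9.59 in midbrain to 9.42 in amygdala.

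Cdkn1a had the widest range of the members, 1.62, from 10.93 in hypothalamus through 10.36 in midbrain, 10.03 in cerebral cortex, 9.91 in ventral striatum and 9.56 in amygdala to 9.31 in hippocampus, and of its neighbours only cortex and ventral striatum overlapped. Btg1 was highest in ventral striatum, at 14.11, then in hippocampus at 13.95, amygdala at 13.67, cerebral cortex at 13.18, midbrain at 13.12 and hypothalamus at 12.99 (1 dye swap), with overlap between cortex and midbrain. Btg3 was highest in ventral striatum, at 9.87, and amygdala, at 9.86, which overlapped, and lowest in hypothalamus, at 8.52, with cortex at 9.45, hippocampus at 9 and midbrain at 8.93 between them. Ier3 was level in amygdala and hypothalamus, at 9.51, followed by cortex at 9.45, midbrain at 9.33 and hippocampus at 9.15, all overlapping their neighbours, and it was lowest in ventral striatum, at 8.66, which did not. Region and slide cannot be told apart in any of these levels.

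**Figure D5:**
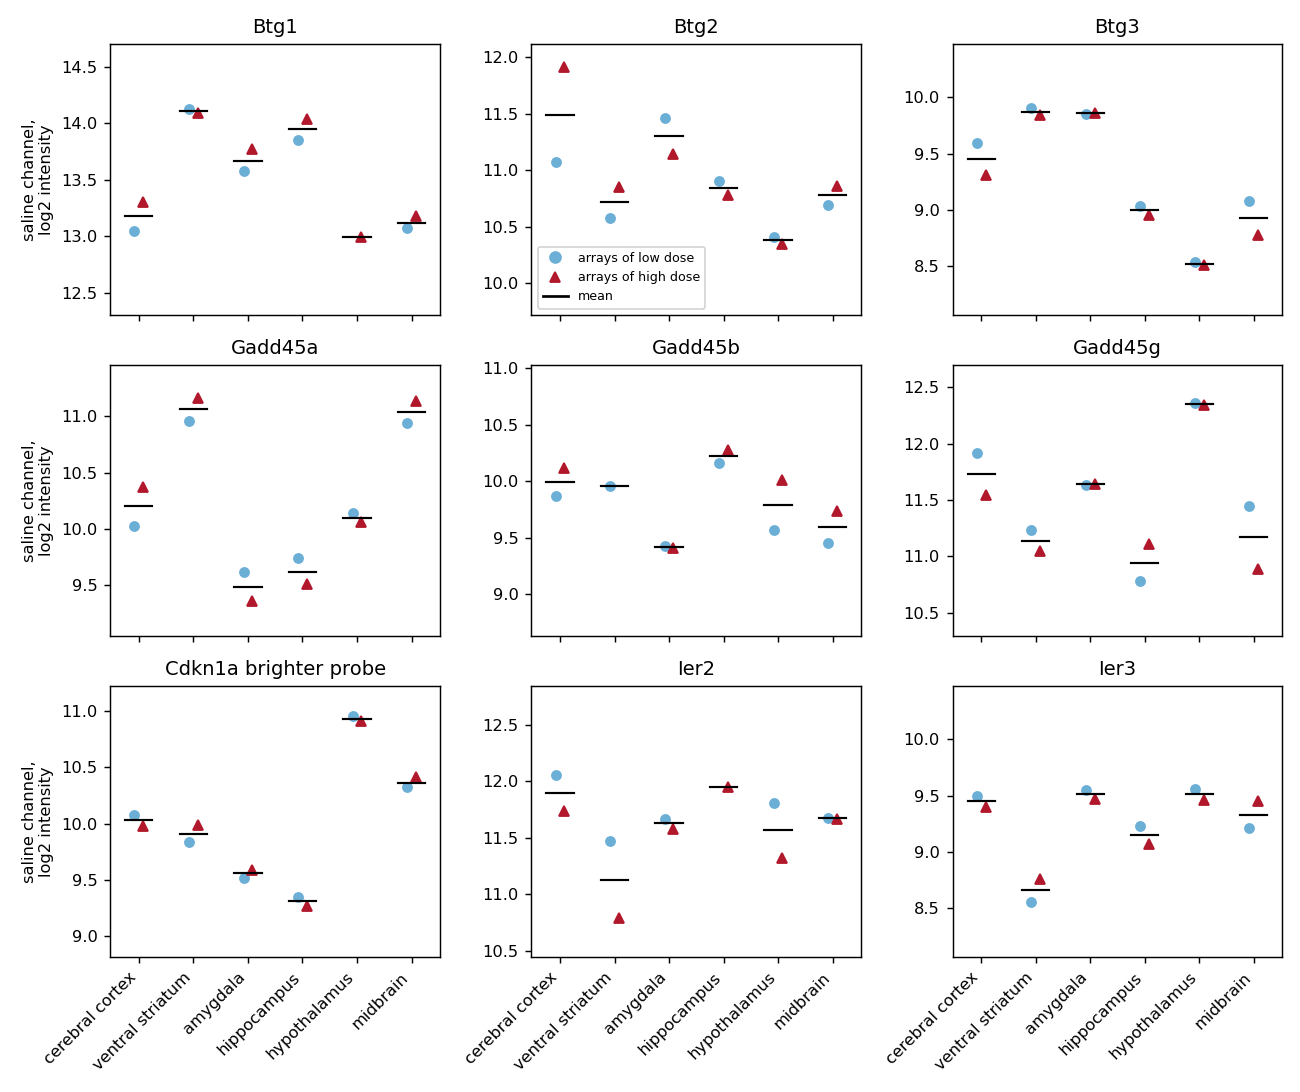
Saline level by region for the 9 tested probes as log2 intensity, with circles for the arrays of the low dose, triangles for those of the high dose and a line at their mean; each panel spans the same range of log2 units. Gadd45g and Cdkn1a are highest in hypothalamus, at 12.35 and 10.93, and the dye swaps of Btg2 in cerebral cortex lie apart, at 11.91 and 11.07.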

How the data were processed

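Per the labels, total RNA was amplified, labelled with Cy3 and Cy5 and hybridised to 24 rat arrays. The deposited files hold, per the file headers, spot intensity values and a log10 ratio of Cy5 over Cy3 for 45018 spots made with Agilent Feature Extraction 9.5.3.1, per the submitters' processing notes, with probe positions in rn3. A value table of the series matched the log10 ratio of the deposited processed signals to within 5e-07 on 19 arrays and 0.00413 on the other 5, with its arrays neither turned nor centred (medians -0.0295 to 0). No column was left unmapped to a sample.

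Mean and background intensities were corrected with normexp (offset 50) and loess-normalised within arrays in limma 3.58.1 (R 4.3.3), with control spots at weight 0 and outlier-flagged spots removed. Spots of a probe were averaged, ratios turned to log2 of MK-801 over saline by the dyes in the labels, and the 2 arrays of a dye swap averaged. Saline levels come from the channels after loess and Aquantile. Probes were kept when well above background in Cy3 and Cy5 on 12 or more of the 24 arrays, and tested on at least 4 of 6 regional values against 0 (lmFit, eBayes, Benjamini-Hochberg over all probes kept, threshold 0.05). The fit was tested on simulated data. Names were updated through RefSeq (GRCr8): 10861 of 41012 probes were named by accession, 5472 by a current and 3692 by an older symbol, and 20987 kept the name in the file. All members matched by accession except Gadd45g, by symbol. For a gene of a list the brightest probe was used.

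Deviations of same-numbered arrays from their dye swap means correlated at 0.523 to 0.746 (60 pairs); the number stands for dose and dye orientation, and calls that changed with it as a block are given beside the results. Where named, genes of a list are those called and up to 4 more with the largest means, and the 5 most alike genes are by Pearson correlation. The members and lists were chosen with earlier results of these data known. Alternatives covered the ratio used, normalisation, filters, the prior, the block and left-out regions, arrays and scan days. 1 region marker is not reported here. Figures were drawn with matplotlib.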

Additional observations from a re-analysis of the deposited data

Results flagged for a closer look

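The ratios of Btg2, Ier2 and Gadd45g differed between the doses, by 0.62, 0.43 and 0.23 on the log2 scale (adjusted p = 0.00265, 0.0022 and 0.0136, limma). The ratio at the high dose was above that at the low dose in 6 of 6, 5 of 5 and 6 of 6 regions. The ratios of Btg2 and the brighter Cdkn1a probe differed between regions, with F values of 27.4 and 9.85 (adjusted p = 0.00108 and 0.0418, limma). The amygdala value of Gadd45a at the low dose, 0.21, lay apart from the other 5 regions, of which the nearest was at 0.02; the gap made up 0.684 of the range. It was the only 1 of 36 sets of regional values with such a gap, and chance gives about 1 in 20. Its arrays read 0.44 with MK-801 in Cy5 and -0.03 with MK-801 in Cy3.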

How the results depend on the processing

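The direction of Btg2, Ier2 and Gadd45g held in all 270 recomputed values over the 4 comparisons, of which 207 kept their call, 43 lost it, 5 gained one and 15, all of Ier2 at the low dose, stayed uncalled. Counts over all probes changed as follows. With the scanner's own ratio 352 were called over both doses, 282 at the high dose, 360 at the low dose and 197 for high minus low; with the value table of the series 346, 285, 351 and 195; with median centring 367, 155, 381 and 112; with processed signals and loess 345, 281, 339 and 204. Without ventral striatum they were 430, 347, 426 and 260, without cerebral cortex 401 over both doses and 320 at the high dose, and without amygdala 345 at the high dose, against 671, 552, 667 and 394 with all regions. Within scan day 1 (midbrain and amygdala) they were 94, 230, 67 and 90, within day 2 (ventral striatum and cerebral cortex) 342, 331, 165 and 159, and within day 3 (hippocampus and hypothalamus) 87, 134, 287 and 91; each rests on 2 regions. The replicate block, which counts the arrays of a dye swap and of a region as separate, called 1795 over both doses, 754 at the high dose, 944 at the low dose and 316 for high minus low, and changed no call of a member beyond those given with the results. Leaving out 1 array number leaves a dye effect uncancelled, and called 4240 to 5711, 7603 to 8875, 8499 to 9649 and 6198 to 8776. For the region difference 17 probes were called with the scanner's own ratio, 175 with no filter on dim probes and 988 with the intensity trend and robust prior, against 291.

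Of 540 recomputed values of the other members, 455 kept their direction and stayed uncalled, 20 became called in the same direction, most of them with 1 array number left out, and 65 changed sign. Called with the opposite sign was Gadd45b at the low dose without array number 3 (0.13, adjusted p = 0.0254). Signs of small means turned as follows. Btg1 was at 0 over both doses and 0.02 at the high dose within scan day 2, and for high minus low at -0.08 with median centring, -0.01 with the replicate block, 0 without midbrain, -0.03 without cerebral cortex and -0.02 with flagged spots kept. Btg3 was at -0.02 over both doses within day 3, and at the high dose at 0 without hippocampus, 0.01 within day 1 and 0.03 within day 2. Cdkn1a was at 0 for high minus low within day 2. Gadd45a over both doses was at -0.01 with median centring and within day 2, -0.03 without amygdala and within day 3, and 0 without cerebral cortex. At the high dose it was at 0.01 with the scanner's ratio, the value table, processed signals and without hypothalamus, 0.03 without ventral striatum and 0.04 within day 1; at the low dose at -0.02 without amygdala and -0.04 within day 3; for high minus low at 0.01 without ventral striatum and within day 3. Gadd45b at the low dose was at 0.01 without midbrain and within day 2 and 0.02 within day 3. Ier3 over both doses was at 0.01 without midbrain and within day 1; at the high dose at -0.02 with median centring, -0.01 without amygdala, -0.03 without cerebral cortex and -0.07 within day 3; at the low dose at 0 within day 1; for high minus low at -0.02 without cerebral cortex and -0.04 within day 3. Without 1 array number, the ranges that crossed 0 were, for Btg3 -0.03 to 0.09 over both doses, -0.1 to 0.07 at the high dose, -0.04 to 0.2 at the low dose, -0.21 to 0.03 for high minus low; for Gadd45a -0.03 to 0.04 over both doses, -0.06 to 0.04 at the high dose, -0.1 to 0.05 for high minus low, -0.06 to 0.09 at the low dose; for Ier3 -0.08 to 0.09 at the high dose, -0.1 to 0.15 for high minus low, -0.08 to 0.05 over both doses, -0.15 to 0.1 at the low dose; for Gadd45b -0.03 to 0.11 over both doses, -0.02 to 0.18 at the high dose, -0.03 to 0.25 for high minus low, -0.15 to 0.13 at the low dose; for Btg1 -0.01 to 0.02 for high minus low. The cause of these shifts was not tested. Of 108 saline levels relative to a probe's mean, 57 moved by no more than the SD of the dye swaps and 51 by more. The high dose has no value without array numbers 3 or 4 and the low dose none without 1 or 2, which hold the other dose. Signal over background limits the dim Cdkn1a probe.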
